A study of Mus musculus with 48 samples.

Results

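Collagen and laminin transcripts were examined in libraries of left nodose ganglia, with libraries of the arcuate nucleus of the hypothalamus for contrast. Members were the gene symbols of the numbered collagen chains (Col followed by chain numbers) and of the laminin alpha, beta and gamma chains (Lama, Lamb, Lamc) with a mean of at least 1 CPM (counts scaled to the library's total) over the 24 nodose libraries. Col25a1, a membrane collagen of neurons, was left out by name. The rule found 52 members among 25229 symbols: 42 collagens and 10 laminins. Of the members, 44 had a mean of at least 5 CPM. The members nearest above the threshold were Col6a4 (1.58 CPM) and Lamb3 (1.67 CPM), and the matching symbols nearest below it were Lama1 (0.378 CPM) and Col9a1 (0.305 CPM).

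The mice were C57Bl/6J males with floxed alleles of both Rev-erba and Rev-erbb (Nr1d1 and Nr1d2), which encode nuclear receptors that repress transcription in the circadian clock. All groups carried the floxed alleles. At 6 to 10 weeks of age the mice received AAV8-TBG-EGFP (Control) or AAV8-TBG-Cre (HepDKO) by tail vein, and tissue was taken 2 to 4 weeks later, at 10 to 12 weeks. TBG is a hepatocyte promoter, so Cre was directed at the liver and not at the tissues sequenced. Housing was at 27 °C on chow in a light-dark cycle, with collection at ZT4, ZT10, ZT16 and ZT22, where zeitgeber time (ZT) counts hours from lights-on. A library pooled tissue of several mice: 4 mice for a nodose library and, per the sample labels, 3 for an arcuate library. There were 3 libraries in each of 16 groups and 48 in all. The pools show the spread between libraries, not between single mice. Nodose libraries used the RiboErase version of the KAPA RNA HyperPrep chemistry, and Novogene made the arcuate libraries, which makes tissue inseparable from preparation in any contrast between them.

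Fibrillar collagens (types I, II, III, V, XI, XXIV and XXVII) form the fibres of connective tissue, and collagens with interrupted helices (FACITs) sit on the surface of those fibres. Collagen IV and the laminins build the basement membrane, the sheet that surrounds each Schwann cell, blood vessel and muscle fibre. A laminin is a trimer of 1 alpha, 1 beta and 1 gamma chain, and the alpha 2 chain is the form of Schwann cell and muscle basement membranes. Collagen VI makes beaded filaments next to that sheet, and collagens XV and XVIII (multiplexins) link it to the fibres. In a nerve or ganglion these proteins come from fibroblasts, Schwann cells, perineurial cells and vessels.

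Nodose libraries held 1813994 to 10422914 counts (median 6641665) and arcuate libraries 15483922 to 20399718. The markers of vagal sensory neurons were low or absent in the nodose libraries: of 8 listed, 3 passed the filter on low counts. Scn10a and P2rx2 had a median of 0, Slc17a6 a median of 0.158 CPM, and Snap25 a median of 6.94 CPM against 952 in arcuate. Markers of skeletal muscle (Acta1, 662 to 10387 CPM), fibroblasts (Pdgfra, 219 to 400 CPM) and adipocytes (Adipoq, 14.7 to 185 CPM) were all present, and the score of myelinating Schwann cell markers (mean log2 CPM) ran from 11.1 to 12.5. The libraries are called nodose by their label, although the markers of the neurons that define this ganglion were low or absent, and whether the dissected tissue was ganglion was not tested. In such bulk samples fewer cells of a type and less RNA per cell cannot be told apart. Nodose libraries that stood apart were Control ZT4 replicate 1 and Control ZT16 replicate 3 (2889210 counts) by depth, HepDKO ZT10 replicate 2 by 1694 counts of Xist in a pool labelled male, and HepDKO ZT22 replicate 3 by its collagen counts. In the arcuate, HepDKO ZT10 replicate 3 had 1914 counts of Xist. Nr1d1 and Nr1d2 did not pass the test between genotypes in the nodose libraries (log2 HepDKO over Control 0.06 ± 0.14 and 0.07 ± 0.13, SE, adjusted p = 0.9997 for both, edgeR).

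The 52 members took 0.865% to 2.00% of the counts of a nodose library (median 1.33%). Laminins were the smaller part, at 0.169% to 0.312%. The highest share was in HepDKO ZT22 replicate 3 (2.00%, exact 95% binomial interval 1.99% to 2.01%), followed by HepDKO ZT4 replicate 2 (1.96%) and Control ZT4 replicate 2 (1.90%). The lowest was in Control ZT10 replicate 1 (0.865%, 0.858% to 0.872%). These intervals cover counting error only and are far narrower than the spread among replicates: at ZT4 the Control pools ran from 1.02% to 1.90% and the HepDKO pools from 1.05% to 1.96%. Only the HepDKO pools at ZT16 lay close together, at 1.16% to 1.21%.

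**Figure D1:**
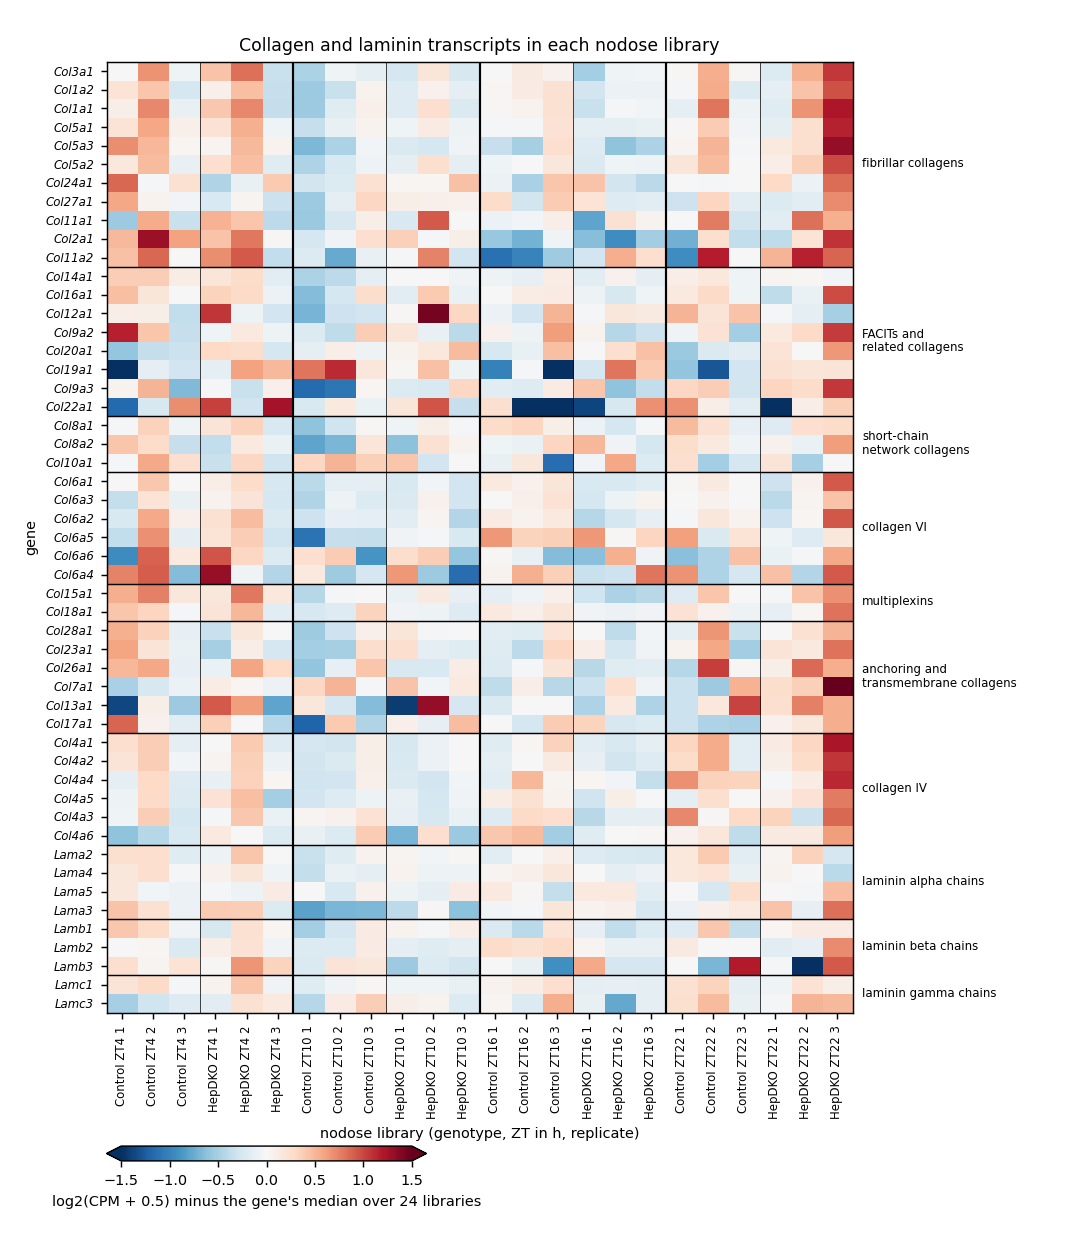
Each row is a member (51 of the 52 are drawn), grouped by role, and each column a nodose library in order of ZT, genotype and replicate. Colour gives log2(CPM + 0.5) minus the gene's median over the 24 libraries; HepDKO ZT22 replicate 3 is raised across most collagens, and Control ZT10 replicate 1 is lowered.

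Fibrillar collagens were the most abundant per length. Divided by exonic length (GENCODE vM21), Col1a1 reached 248 CPM per kb, Col3a1 244 and Col1a2 162. The 11 fibrillar genes summed to 803 of the members' 1675 CPM per kb. Col1a1, the alpha 1 chain of collagen I, ran from 976 to 3327 CPM over the libraries (median 1430). Col3a1, the single chain of collagen III, ran from 1521 to 4522 CPM, and Col1a2, the alpha 2 chain of collagen I, from 1302 to 3694 CPM. The lowest Col1a1 value came from Control ZT10 replicate 1 and the highest from HepDKO ZT22 replicate 3.

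Basement membrane genes came next. Col4a1 and Col4a2, the chains of the collagen IV found in nearly every basement membrane, stood at 129 and 79.2 CPM per kb. The chains of more restricted collagen IV networks were lower, at 5.73 for Col4a5, 4.40 for Col4a4, 2.85 for Col4a3 and 0.496 for Col4a6. Among laminins, Lamc1 (71.3 CPM per kb), Lamb2 (61.3), Lamb1 (42.3), Lama2 (33.3) and Lama4 (27.8) were the main chains. Lama5 was at 5.58 and Lamc3 at 0.861. Lama3 (1.02) and Lamb3 (0.255), chains of laminin 332 of epithelial anchorage sites, were low. Lamc1 and Lama4 had the smallest spread within groups among the abundant laminins, at 0.15 and 0.14 log2 units (SD).

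Collagen VI was led by Col6a1 (87.0 CPM per kb), Col6a2 (37.3) and Col6a3 (29.7), which assemble together, whereas Col6a5, Col6a6 and Col6a4 had 9.40, 1.37 and 0.183. Per kb, Col15a1 (101 CPM) exceeded the other multiplexin Col18a1 (14.4). Among FACITs and related collagens the highest per length were Col14a1 (36.1), Col16a1 (10.5) and Col9a2 (5.35), and Col12a1 had 4.48. Col28a1 (27.0), a collagen of peripheral nerve, and Col23a1 (16.7), a membrane-spanning collagen, led the group of anchoring and transmembrane collagens, ahead of Col26a1 (2.41). In the short-chain group Col8a1 had 9.53 and Col8a2 4.23, and Col10a1, a collagen of growing cartilage, ran from 1.76 to 6.96 CPM. Col22a1, a collagen of muscle-tendon junctions, had the largest spread within groups of any member (1.07 log2 units), and its lowest library held 0 counts.

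Against the arcuate nucleus most members were higher in nodose libraries. All 24 nodose libraries lay above all 24 arcuate libraries for 31 members, against 22.2% of the 14593 genes with at least 1 CPM in nodose. For Col3a1 the nodose range of 1521 to 4522 CPM faced 5.05 to 16.8 CPM in arcuate, and for Col14a1 180 to 325 CPM faced 0.894 to 2.65. For 3 members all nodose libraries lay below all arcuate ones (28.2% of the same genes): Col11a2 (3.15 to 17.4 against 20.6 to 50.3 CPM), Col9a3 (1.64 to 9.46 against 11.1 to 22.8) and Lamb3 (0.202 to 4.18 against 6.75 to 12.4). The remaining 18 overlapped. The order differed too: Col4a2 ranked first per length in arcuate (14.5 CPM per kb) and Col23a1 second (13.3), whereas Col3a1 was at 0.953 there. The members held 0.0758% to 0.141% of arcuate counts, the top value from HepDKO ZT4 replicate 3. Members were chosen by a nodose level of at least 1 CPM, so genes scarce in nodose could not enter. The genes they are set against met the same threshold. No test was made between the tissues.

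**Figure D2:**
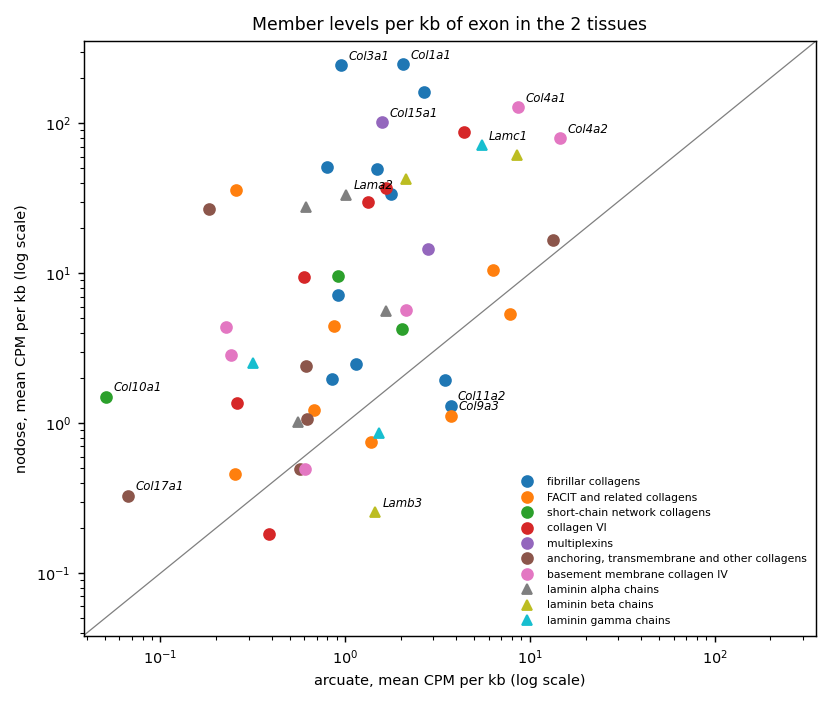
Mean CPM per kb of exon of each member in the 24 arcuate (horizontal) and 24 nodose libraries (vertical), on log axes, with colour for role, triangles for laminins and the line of equality. Points above the line, such as Col3a1 (0.953 in arcuate and 244 in nodose), are higher in nodose, and Lamb3, Col9a3 and Col11a2 lie below it.

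Time of day was the first question asked of the members. Each gene was fitted with edgeR's quasi-likelihood test with 1 mean per genotype and ZT, and the 24-h component was tested as a mean over genotypes. Amplitude is the log2 distance from mean to peak, and all p-values were adjusted by Benjamini-Hochberg over the 14867 genes that passed the filter, which kept all 52 members. For this component 4 members passed an adjusted p of 0.05, where 1.33% of all genes tested did: Col2a1, Col15a1, Lama3 and Col5a3. In the test of any difference among the 4 time points, 3 members passed (Col2a1, Lama3 and Col15a1), where 1.11% of genes did. At an unadjusted p under 0.05 the 24-h component held 20 members, against 12.8% of genes, and the test among time points 15, against 12.4%. DESeq2 called 5 members in each of these tests, against 2.58% of genes for the 24-h component and 2.83% among time points.

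Col2a1 encodes the chain of collagen II, the fibrillar collagen of cartilage. Its gene lies at 15:97975602-98004695 on the minus strand of mm10. The lowest, median and highest of 6 libraries were 16.7, 24.1 and 40.9 CPM for ZT4, then 13.7, 16.8 and 21.1 for ZT10, 8.35, 10.6 and 15.8 for ZT16, and 9.73, 15.8 and 35.2 for ZT22. All ZT4 libraries were above all ZT16 libraries, while ZT22 spanned both. The amplitude was 0.63 with an estimated peak at ZT3.95 (adjusted p = 0.0158, edgeR), and the highest and lowest time points differed by 1.26 log2 units (adjusted p = 0.0330). Of the cartilage markers, Matn1 and Matn3 had a median of 0 in these libraries, Acan one of 0.133 CPM, Comp one of 3.70 and Sox9, which other cells also express, one of 33.1.

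Col15a1 encodes a proteoglycan collagen of the basement membrane zone and lies at 4:47208161-47313167 on the plus strand. At ZT4 the 6 libraries ran from 657 to 1018 CPM (median 760), at ZT10 from 438 to 646 (562), at ZT16 from 424 to 619 (503) and at ZT22 from 515 to 945 (685). Every ZT4 library was above every ZT10 and ZT16 library. The amplitude was 0.38, with an estimated peak at ZT2.30 (adjusted p = 0.0223, edgeR).

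Lama3, the alpha chain of laminin 332, was a scarce transcript. At ZT10 it ran from 6.02 to 11.0 CPM (median 6.74), at ZT16 from 9.07 to 12.3 (11.0), at ZT22 from 9.88 to 19.6 (11.8) and at ZT4 from 9.38 to 14.7 (13.4). The low point was ZT10, where 5 of 6 libraries were below all others. The amplitude was 0.40, with a peak near ZT23.0 (adjusted p = 0.0292, edgeR). Gm29200 overlaps 1.83% of its exonic bases on the opposite strand.

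Col5a3, the alpha 3 chain of collagen V, lies at 9:20770050-20815067 on the minus strand. It ran from 322 to 509 CPM at ZT4 (median 384), 198 to 306 at ZT10 (267), 207 to 374 at ZT16 (237) and 307 to 788 at ZT22 (360). The ZT4 and ZT22 libraries lay above all ZT10 libraries, and the value of 788 was HepDKO ZT22 replicate 3. The amplitude was 0.47 with a peak at ZT0.721 (adjusted p = 0.0332, edgeR).

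**Figure D3:**
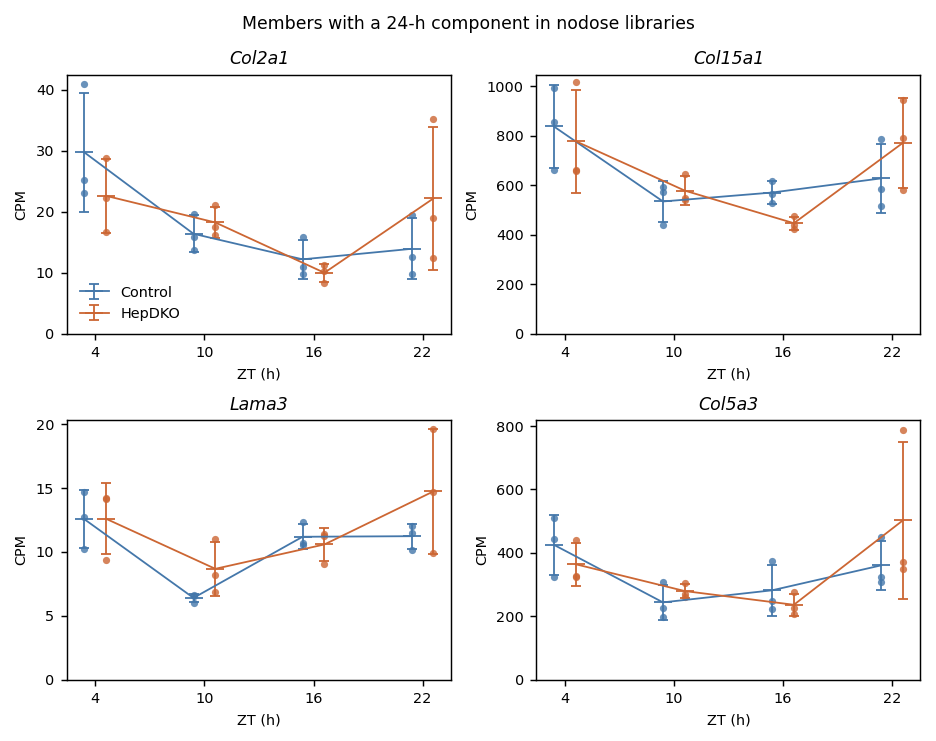
CPM of the members that passed the test of the 24-h component, by ZT and genotype: points are libraries, dashes joined by lines the means and bars the SD of 3 libraries. Col2a1 was lowest at ZT16 (8.35 to 15.8 CPM over both genotypes), as was Col15a1 with the genotypes pooled (424 to 619 CPM) but not in Control (means of 535 CPM at ZT10 and 571 at ZT16), Lama3 was lowest at ZT10 (6.02 to 11.0 CPM), and Col5a3 at ZT22 has 1 HepDKO library at 788 CPM.

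These calls were close to the threshold. Leaving out 1 library at a time ended the call for Col2a1 without HepDKO ZT4 replicate 2, Control ZT4 replicate 2 or Control ZT16 replicate 1 or 2, with adjusted p up to 0.0627. For Col15a1 the same 4 libraries and HepDKO ZT16 replicates 2 and 3 did so (up to 0.0672). For Lama3 10 of 24 libraries did (up to 0.0936): HepDKO ZT10 replicates 1 and 3, HepDKO ZT22 replicates 1 and 3, Control ZT4 replicate 2, Control ZT10 replicates 1 and 2, Control ZT16 replicate 1, and Control ZT22 replicates 2 and 3. For Col5a3 13 did (up to 0.0791): HepDKO ZT4 replicate 2, all 3 of HepDKO ZT10, HepDKO ZT16 replicates 2 and 3, Control ZT4 replicates 1 and 2, Control ZT10 replicates 1 and 2, Control ZT16 replicates 1 and 2, and Control ZT22 replicate 2. Without all 4 libraries that stood apart (an alternative chosen after seeing the data), Col2a1 (adjusted p = 0.00463, edgeR), Lama3 (0.0386) and Col5a3 (0.0285) passed, and Col15a1 (0.0649) did not. With scores of skeletal muscle and adipocyte markers as covariates none of the 4 passed (adjusted p 0.0706 for Col2a1, 0.0690 for Lama3, 0.0835 for Col5a3 and 0.200 for Col15a1, edgeR). The amplitudes in that fit were 0.60, 0.39, 0.43 and 0.27 in the same order, against 0.63, 0.40, 0.47 and 0.38 without the covariates. With scores of myelinating Schwann cell and fibroblast markers instead, also chosen after seeing the data, Col2a1 and Col15a1 passed (0.0114 and 0.0122) and Lama3 and Col5a3 did not (0.181 and 0.0996, with amplitudes of 0.35 and 0.40). Scores of several cell types (mean log2 CPM of their markers) are given, without a test between times, as means over the 6 libraries of ZT4, ZT10, ZT16 and ZT22 in that order. The adipocyte score was 5.59, 6.45, 6.64 and 5.87 (SD 0.410 to 0.948), and the skeletal muscle score 10.9, 11.6, 10.6 and 11.2 (SD 0.482 to 1.25). The fibroblast score was lowest at ZT10, at 7.41, 7.25, 7.64 and 7.54 (SD 0.117 to 0.247). The perineurial score was also lowest at ZT10, at 7.33, 7.09, 7.40 and 7.40 (SD 0.0838 to 0.206). So was the macrophage score, at 4.53, 4.24, 4.37 and 4.42 (SD 0.126 to 0.308). The score of non-myelinating Schwann cells and satellite glia was highest at ZT4, at 5.77, 5.45, 5.36 and 5.45 (SD 0.164 to 0.370), and so was that of chondrocytes and bone, at 0.58, 0.37, 0.27 and 0.42 (SD 0.166 to 0.594). The part of the last 4 scores in the calls was not tested. In the test of any difference among times, calls ended in more of the 24 fits that left out 1 library. Col2a1 lost its call in 13 (adjusted p from 0.0504): without HepDKO ZT4 replicate 1 or 2, any HepDKO ZT10 or ZT16 replicate, Control ZT4 replicate 2, or replicate 1 or 2 of Control ZT10 or ZT16. Col15a1 lost it in 16 (from 0.0556) and kept it only without HepDKO ZT4 replicate 1 or 3, HepDKO ZT22 replicate 1 or 3, Control ZT4 replicate 3, Control ZT10 replicate 3, or Control ZT22 replicate 1 or 2. Lama3 lost it in 18 (from 0.0539) and kept it only without HepDKO ZT4 replicate 3, HepDKO ZT10 replicate 2, HepDKO ZT22 replicate 2 or 3, Control ZT4 replicate 3, or Control ZT22 replicate 1.

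The upstream sequences of Col15a1 and Col5a3 are shown because these are the called members with an entry among the promoters of RefSeq (GRCm38.p6). Of the 52 members, 38 had an entry. Each is the 250 bases before the RefSeq start, 5′ to 3′ on the gene's strand: 4:47207762-47208011 (plus) for Col15a1 and 9:20815068-20815317 (minus) for Col5a3. The GENCODE vM21 start given above lies 149 bases downstream of the RefSeq start for Col15a1 and at the same base for Col5a3. No exon of GENCODE vM21 overlapped either window. Capitals mark motif matches.

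Col15a1: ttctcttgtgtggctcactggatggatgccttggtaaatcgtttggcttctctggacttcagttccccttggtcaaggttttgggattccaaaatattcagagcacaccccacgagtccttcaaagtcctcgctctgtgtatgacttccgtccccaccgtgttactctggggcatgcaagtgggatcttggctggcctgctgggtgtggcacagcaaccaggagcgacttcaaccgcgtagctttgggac

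Col5a3: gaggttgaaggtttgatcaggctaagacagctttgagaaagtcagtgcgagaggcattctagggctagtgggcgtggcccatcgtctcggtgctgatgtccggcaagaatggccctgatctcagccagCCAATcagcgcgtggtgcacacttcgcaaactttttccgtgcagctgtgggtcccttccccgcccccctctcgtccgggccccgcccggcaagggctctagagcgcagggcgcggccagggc

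The motifs searched on both strands were the E-box CACGTG, bound by the clock activators, the D-box TTATGTAA, the nuclear receptor half-site AGGTCA and the CCAAT box CCAAT. None of them was found in the Col15a1 window, and only a CCAAT box, beginning 122 bases before the start, in that of Col5a3. Over the 38 members with an entry, CACGTG was in 0 windows (6.02% of all 32851 promoters), TTATGTAA in 0 (0.819%), AGGTCA in 7 (14%) and CCAAT in 12 (33.8%). A match is a run of letters and not a tested site.

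Most other members leaned the same way without passing the adjusted test. The estimated peak lay between ZT18 and ZT6 for 47 of 52 members, against 52.8% of all genes tested; this window was chosen after seeing the values. It held 43 members in Control alone (52.6% of genes) and 47 in HepDKO alone (51.1%). Members share libraries and move together from library to library, so these counts are not 52 separate observations. The median amplitude was 0.20 over members and 0.12 over all genes. By role, an unadjusted p under 0.05 (12.8% of all genes) was reached by 8 of 11 fibrillar, 4 of 6 collagen IV, 3 of 6 collagen VI, 2 of 8 FACIT and related, 1 of 2 multiplexin, 1 of 6 anchoring and transmembrane and 0 of 3 short-chain collagens. Among laminins 1 of 4 alpha, 0 of 3 beta and 0 of 3 gamma chains reached it. Differences between roles were not tested. The estimates for the commonest genes were 0.33 with a peak at ZT23.9 for Col1a1 (adjusted p = 0.303), 0.33 at ZT0.334 for Col3a1 (0.253), 0.30 at ZT23.2 for Col4a1 (0.177) and 0.29 at ZT23.7 for Col4a2 (0.129), all by edgeR. For Col1a1 the medians over 6 libraries were 1708 CPM (ZT4), 1252 (ZT10), 1430 (ZT16) and 1822 (ZT22), and the ranges of all 4 time points overlapped.

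**Figure D4:**
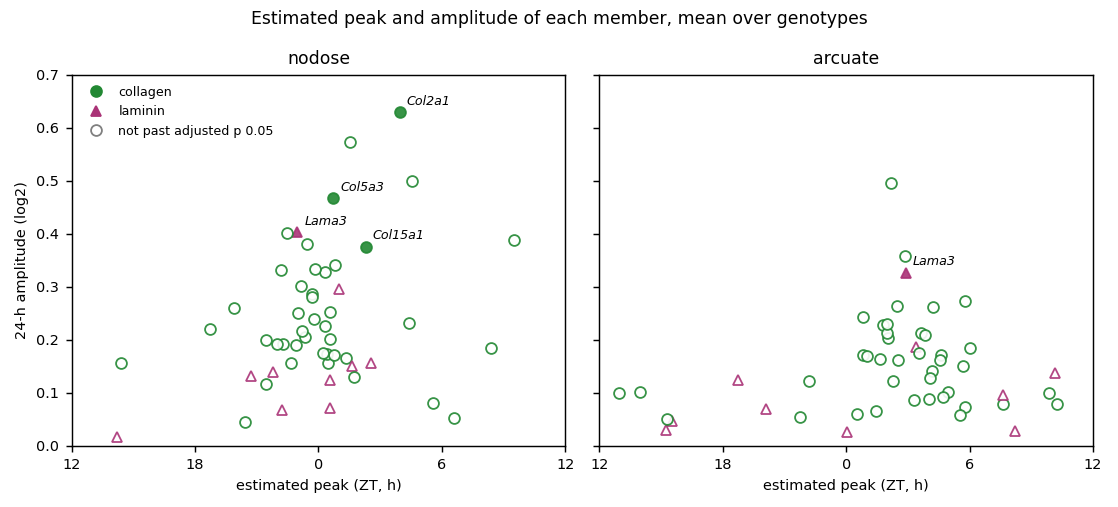
Amplitude (log2, vertical) and estimated peak (ZT, horizontal, centred on ZT0) of each tested member in nodose (left) and arcuate libraries (right); circles are collagens, triangles laminins, and filled symbols passed an adjusted p of 0.05. In nodose 47 of 52 peaks lie between ZT18 and ZT6, and in arcuate 38 of 50.

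The 24-h component was also tested in each genotype, as a contrast within the same fit of all 24 libraries. With means from 12 libraries each, 0 members passed in Control (0.242% of genes did) and 0 in HepDKO (0.121%), by edgeR. At an unadjusted p under 0.05 there were 10 members in Control (8.88% of genes) and 18 in HepDKO (7.28%). DESeq2 called 1 in each, Col14a1 in Control (adjusted p = 0.0484; 0.908% of genes) and Col15a1 in HepDKO (0.0352; 0.471% of genes). In edgeR the lowest p in Control were those of Col2a1 (amplitude 0.68, peak ZT4.68, adjusted p = 0.191) and Col14a1 (0.26, ZT0.567, 0.216), and in HepDKO those of Col15a1 (0.45, ZT2.17, 0.220) and Col5a3 (0.53, ZT0.427, 0.344). The genotype by time interaction gave 0 members and 0% of genes by edgeR, 2 members at an unadjusted p under 0.05 (2.36% of genes) and 0 members by DESeq2 (0% of genes). Those 2 were the FACITs Col12a1 and Col19a1 (edgeR, adjusted p = 0.935 for both).

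Genotype was the second question, whether loss of the receptors in hepatocytes went with another level of these genes in the ganglion. In nodose libraries edgeR called 0 members and 0% of all genes, as a mean over ZT and at each ZT. DESeq2 called 0 members in each, where 0.0202% of genes passed for the mean over ZT and 0% at each ZT. At an unadjusted p under 0.05 there were 4 members for the mean over ZT (3.34% of genes), 1 for the ZT4 contrast (2.36%), 2 for ZT10 (2.04%), 3 for ZT16 (4.94%) and 3 for ZT22 (5.25%). The median log2 difference over the members was 0.02 for the mean over ZT (34 of 52 higher in HepDKO) and -0.0045 for ZT4 (26 higher). It was 0.13 for ZT10 (37 higher), -0.19 for ZT16 (12 higher) and 0.24 for ZT22 (42 higher). The median over all genes was at most 0.01 in each. The SD of a library's member median within groups was 0.198 log2 units. The mean over ZT turned to -0.039 without HepDKO ZT22 replicate 3 and ran up to 0.054 without HepDKO ZT22 replicate 2. The ZT22 value was -0.0052 without HepDKO ZT22 replicate 3, so it rests on that library, and 0.40 and 0.38 without HepDKO ZT22 replicate 1 and Control ZT22 replicate 2. The ZT10 value was 0.033 without Control ZT10 replicate 1, 0.036 without HepDKO ZT10 replicate 2 and 0.21 without Control ZT10 replicate 3. The ZT16 value was -0.12 without Control ZT16 replicate 3. The ZT4 value ran from -0.17 to 0.12 as single libraries were left out. With myelinating Schwann cell and fibroblast scores as covariates, chosen after seeing the data, the ZT16 value was 0.05. With the planned skeletal muscle and adipocyte scores it moved by less than 0.198. In ZT16 pools the mean scores of Control and HepDKO were 7.75 and 7.53 for fibroblasts, 7.54 and 7.26 for perineurial cells, 11.8 and 11.6 for myelinating Schwann cells and 10.0 and 11.2 for skeletal muscle. The part of the perineurial score in the result was not tested.

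The members with the lowest p were mostly scarce. Because they were picked for a low p, pools that lie apart add no separate support. The share of all genes with such pools was not computed. Col20a1 is a FACIT. In the ZT22 Control pools it read 3.98, 5.18 and 5.42 CPM, below the HepDKO pools at 7.11, 6.05 and 9.82. In the ZT4 Control pools it read 3.93, 4.65 and 4.79, again below the HepDKO pools at 7.62, 7.42 and 5.01. The genotypes overlapped at ZT10 and ZT16. The difference over all ZT was 0.44 ± 0.12 (log2, SE, adjusted p = 0.9997, edgeR).

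Col19a1, a FACIT found in muscle, read 0.491 to 4.45 CPM (Control) against 4.46 to 7.77 (HepDKO) in the ZT4 pools, 1.73 to 3.94 against 5.64 to 5.84 in the ZT22 pools, and 0.587 to 4.87 against 4.05 to 8.97 in the ZT16 pools. The ZT10 pools were the other way round, 5.61 to 11.3 against 4.64 to 6.85. The mean difference was 0.62 ± 0.23 (SE, adjusted p = 0.9997, edgeR). Its level followed the skeletal muscle markers over the 24 libraries (r = 0.86; 0.61 without the 2 farthest), and the mean of that score was 10.5 (Control) and 11.3 (HepDKO) in ZT4 pools, 11.8 and 11.4 in ZT10 pools, 10.0 and 11.2 in ZT16 pools, and 11.0 and 11.3 in ZT22 pools. A fit with skeletal muscle and adipocyte scores as covariates kept the sign of the Col19a1 difference. The part of muscle markers alone was not tested.

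Differences at single times were read for the members with the lowest p. In the ZT10 pools Col12a1 read 37.4, 48.8 and 49.8 CPM for Control and 61.7, 165 and 75.6 for HepDKO (1.16 ± 0.34, SE, adjusted p = 0.998, edgeR), and the value of 165 was the library with Xist counts. That library also had the highest chondrocyte and bone score of the 24 (1.54), whose means in ZT10 pools were 0.11 (Control) and 0.63 (HepDKO); the part of that score in the result was not tested. Without that library the estimate was 0.59, and all HepDKO pools lay above all Control pools with it or without it. Col7a1, the anchoring fibril collagen, read 7.19, 6.13 and 13.3 CPM in ZT22 Control pools and 11.0, 11.9 and 47.3 in the HepDKO ones (1.44 ± 0.41, SE, adjusted p = 0.877, edgeR). The genotypes overlapped, and the estimate was 0.42 without HepDKO ZT22 replicate 3. Col11a2, a chain of collagen XI, read 3.15, 3.46 and 4.99 CPM in ZT16 Control pools and 6.00, 11.1 and 8.95 in the HepDKO ones (1.23 ± 0.48, SE, adjusted p = 0.844, edgeR). Col14a1 read 180, 192 and 228 CPM in ZT10 Control pools and 251, 250 and 241 in the HepDKO ones (0.31 ± 0.13, SE, adjusted p = 0.998, edgeR). Neither of these overlapped between genotypes, which adds no separate support for members picked by their p.

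In the arcuate nucleus 50 members were tested, Col10a1 and Col17a1 being too scarce. Lama3 passed both time tests there too, as the only member. It ran from 5.60 to 9.66 CPM in ZT4 libraries (median 7.34), 4.80 to 6.38 in ZT10 (5.44), 3.94 to 5.64 in ZT16 (4.87) and 4.85 to 7.68 in ZT22 ones (6.23). All but 1 of the ZT4 libraries lay above all ZT16 libraries. The amplitude was 0.33 with a peak at ZT2.88 (adjusted p = 0.00902, edgeR; 3.86% of genes passed), and the difference among times had an adjusted p of 0.0174 (2.79% of genes). At an unadjusted p under 0.05 the 24-h component held 10 members (21.6% of genes) and the test among times 6 (19.5%). DESeq2 called 3 members in each (6.68% and 5.86% of genes). The adjusted p among times was 0.0519 without Control ZT4 replicate 3. The estimated peak in nodose was ZT23.0; a difference between the tissues was not tested.

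The arcuate peak window between ZT18 and ZT6 held 38 of 50 members (49% of genes), 35 in Control alone (50.6%) and 37 in HepDKO alone (48%). Without HepDKO ZT4 replicate 3 it held 33 for the mean over genotypes and 30 in HepDKO alone. Within genotypes 0 members passed in Control (0.261% of genes) and 0 in HepDKO (0.379%; 2 members and 2.39% of genes by DESeq2), while an unadjusted p under 0.05 was reached by 1 (7.73%) and 13 (17.4%), and the interaction held 0 (0%) and 1 (2.54%). For genotype, edgeR called 0 members and 0% of genes in each arcuate test, with 6 members at an unadjusted p under 0.05 for the mean over ZT (8.61% of genes), 8 for ZT4 (11.9%), 0 for ZT10 (2.34%), 1 for ZT16 (2.73%) and 4 for ZT22 (3.72%). Lama2 had the lowest p over all ZT (-0.20 ± 0.05, SE, adjusted p = 0.269, edgeR). In ZT4 pools Lama2 read 17.3, 17.3 and 16.1 CPM for Control and 15.9, 14.2 and 13.7 for HepDKO. The pools were only narrowly apart (16.05 against 15.94 CPM), for a member picked by its p. For the ZT4 contrast the lowest p were those of Col18a1 (0.51 ± 0.13, SE, adjusted p = 0.260, edgeR) and Col11a2 (0.50 ± 0.17, SE, 0.332). Both were highest in HepDKO ZT4 replicate 3, with 31.9 CPM of Col18a1 against 16.4 to 20.5 in the other 5 libraries of that time. Without that library their estimates were 0.26 and 0.19, and the median over members at ZT4 went from 0.25 to -0.0037. The lowest p were those of Col27a1 at ZT10 (0.35, adjusted p = 0.999, edgeR) and Col8a1 at ZT22 (-0.44, 0.99998). The estimates were 0.23 without HepDKO ZT10 replicate 3 and -0.27 without Control ZT22 replicate 1. In HepDKO alone Lama3 (adjusted p = 0.0945, edgeR) and Col11a2 (0.140) had the lowest p for the 24-h component, and in Control alone Lama3 (0.494) and Lamc3 (0.679). For the interaction these were Col18a1 and Col4a2 (edgeR, adjusted p = 0.999 for both). Among 144 combinations of a named member and a ZT, 1 had the genotypes apart in opposite directions in the 2 tissues (Col16a1 at ZT16), against 0.536% of such combinations over all genes tested in both.

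Within nodose libraries most pairs of members were positively correlated. The median Pearson r over the 1326 pairs of members was 0.34, against -0.00095 over pairs of 2000 genes drawn from all those tested, and 31.0% of member pairs exceeded 0.5, against 6.07%. Of the member pairs 18.3% were below 0, against 50.1%, and Col22a1, Col10a1 and Col19a1 had a negative median r with the other members (-0.06, -0.17 and -0.23). It was 0.33 on residuals from the 8 group means and 0.36 after removing skeletal muscle and adipocyte scores. Without HepDKO ZT22 replicate 3 it was 0.27. The median was 0.63 among fibrillar collagens, 0.64 among collagen IV genes, 0.40 among collagen VI genes, 0.11 among FACITs, 0.13 among anchoring and transmembrane collagens and -0.19 among the 3 short-chain collagens. It was 0.25 among laminin alpha, 0.18 among beta and 0.45 among gamma chains. In arcuate libraries the median over member pairs was 0.19, against -0.0022 over pairs of 2000 genes drawn there. By Spearman rho it was 0.14 in arcuate and 0.29 in nodose libraries. All these values share the same libraries, and the genes in a pair share depth.

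Single pairs were read among the most abundant genes. Col1a1 and Col1a2, the chains of collagen I, had r = 0.96 and rho = 0.95 over 24 libraries (permutation p = 1e-05 for each, the smallest that 100000 permutations can give, adjusted p = 3.86e-05 and 4.50e-05 over 27 relations computed). Without the 2 libraries farthest from the median it was 0.93. Col1a1 and Col3a1 had r = 0.97 and rho = 0.92, and Col1a1 and Col6a1 r = 0.87 and rho = 0.83, with the same p. Between families, Col1a1 and Col4a1 had r = 0.83 and rho = 0.75 (permutation p = 1e-05 and 4e-05), with 0.69 without the 2 farthest libraries. Col1a1 and Lama2 had r = 0.47 and rho = 0.42 (permutation p = 0.0198 and 0.0435, adjusted 0.0382 and 0.0691), with 0.28 without the 2 farthest libraries, 0.83 in Control, 0.22 in HepDKO and 0.75 without HepDKO ZT22 replicate 3.

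Chains whose genes start head to head were compared as pairs. Col4a1 (8:11198423-11312826, minus) and Col4a2 (8:11312805-11449287, plus) overlap by 22 bases at their starts in GENCODE vM21. Their r was 0.98 (rho 0.96, permutation p = 1e-05 for each), 0.98 on group residuals, and each was the other's closest member. The shared bases, shown because both transcripts begin in them, are at 8:11312805-11312826 on the Col4a2 strand and hold none of the motifs searched.

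Col4a1 and Col4a2 starts: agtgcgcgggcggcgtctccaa

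Col4a3 and Col4a4, head to head with 71 bases between them, had r = 0.78, and Col4a5 and Col4a6, with 1308 bases, r = 0.42. Pairs without a shared start ranged as widely. Col6a1 and Col6a2 on 1 strand had r = 0.95, Col3a1 and Col5a2 (tail to tail) 0.93, and Col6a5 and Col6a6 0.11. Without knowledge of the strand used in counting, reads over the 22 shared bases could go to either gene; they are 0.295% of the exonic bases of Col4a1.

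Among 13 marker scores, the highest r was with the perineurial score for 19 members, with the score of myelinating Schwann cell markers for 11 and with another score for the rest. With the perineurial score r was 0.61 for Col1a2, 0.60 for Col6a1, 0.53 for Col1a1 and 0.53 for Col4a1. The score of myelinating Schwann cell markers correlated with Lamb1 (r = 0.89), Col28a1 (0.85), Lama2 (0.82), Col23a1 (0.76) and Col26a1 (0.75). For Lama2 rho was 0.82 and for Col28a1 0.89 (permutation p = 1e-05 for all, adjusted p = 3.86e-05 for r and 4.50e-05 for rho). Without the 2 farthest libraries r was 0.76 and 0.78. Col1a1 had r = 0.42 with that score (permutation p = 0.0438, adjusted 0.0739), with 0.81 in Control and 0.07 in HepDKO. Col4a1 had r = 0.51 and rho = 0.67 (permutation p = 0.0109 and 0.00045, adjusted 0.0294 and 0.00152), with 0.89 in Control, 0.20 in HepDKO and 0.80 without HepDKO ZT22 replicate 3. The difference between genotypes was not tested. Lama2 ran from 429 to 721 CPM and Col28a1 from 88.3 to 203 CPM.

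The fibroblast score passed with none of the 4 members related to it. Col1a1 had r = 0.26 with the fibroblast score (8 markers, permutation p = 0.222, adjusted 0.289), Col4a1 0.18 (p = 0.401), Lama2 -0.07 (p = 0.726) and Col28a1 -0.20 (p = 0.348). As single libraries were left out, r with the fibroblast score ran from 0.21 to 0.33 for Col1a1 and 0.11 to 0.27 for Col4a1. It ran from -0.15 to 0.0050 for Lama2 and -0.31 to -0.087 for Col28a1. Col6a5 followed that score (r = 0.77; 0.76 with the perineurial score), and Col8a1 (0.76) the perineurial score. Lama2 fell as adipocyte markers rose (r = -0.76, rho = -0.62, permutation p = 5e-05 and 0.00139, adjusted 0.000169 and 0.00375). With the skeletal muscle score Lama2 had r = -0.47 and rho = -0.63 (adjusted permutation p = 0.0382 and 0.00375), and Col28a1 r = -0.49 and rho = -0.50 (adjusted 0.0378 and 0.0302), with -0.69 in Control and 0.13 in HepDKO. With the endothelial score none of Col1a1, Col4a1, Lama2 and Col28a1 passed for both r and rho (r from -0.44 for Lama2 to 0.30 for Col1a1). Without HepDKO ZT22 replicate 3 r with that score was 0.05 for Col1a1, -0.30 for Col4a1 (0.16 with it) and -0.55 for Col28a1 (-0.27 with it). For the endothelial score Col1a1 had -0.27 in Control and 0.58 in HepDKO. Col19a1 (0.86) and Col22a1 (0.67) followed skeletal muscle, with 0.61 and 0.32 without the 2 libraries farthest on that score (Control ZT4 replicate 1 and Control ZT16 replicate 3). Col12a1 (0.79) and Col11a1 (0.75) followed the low chondrocyte and bone markers. Without the 2 libraries farthest on that score (HepDKO ZT4 replicate 1 and HepDKO ZT10 replicate 2) r was 0.45 for Col12a1 and 0.75 for Col11a1. Lama4, an alpha chain found in vessel basement membranes among others, had r = -0.13 with Pecam1 of endothelial cells (permutation p = 0.552). With non-myelinating Schwann cell and satellite glia markers it had 0.73. In all, 11 of the 27 relations passed an adjusted p of 0.05 for both r and rho.

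**Figure D5:**
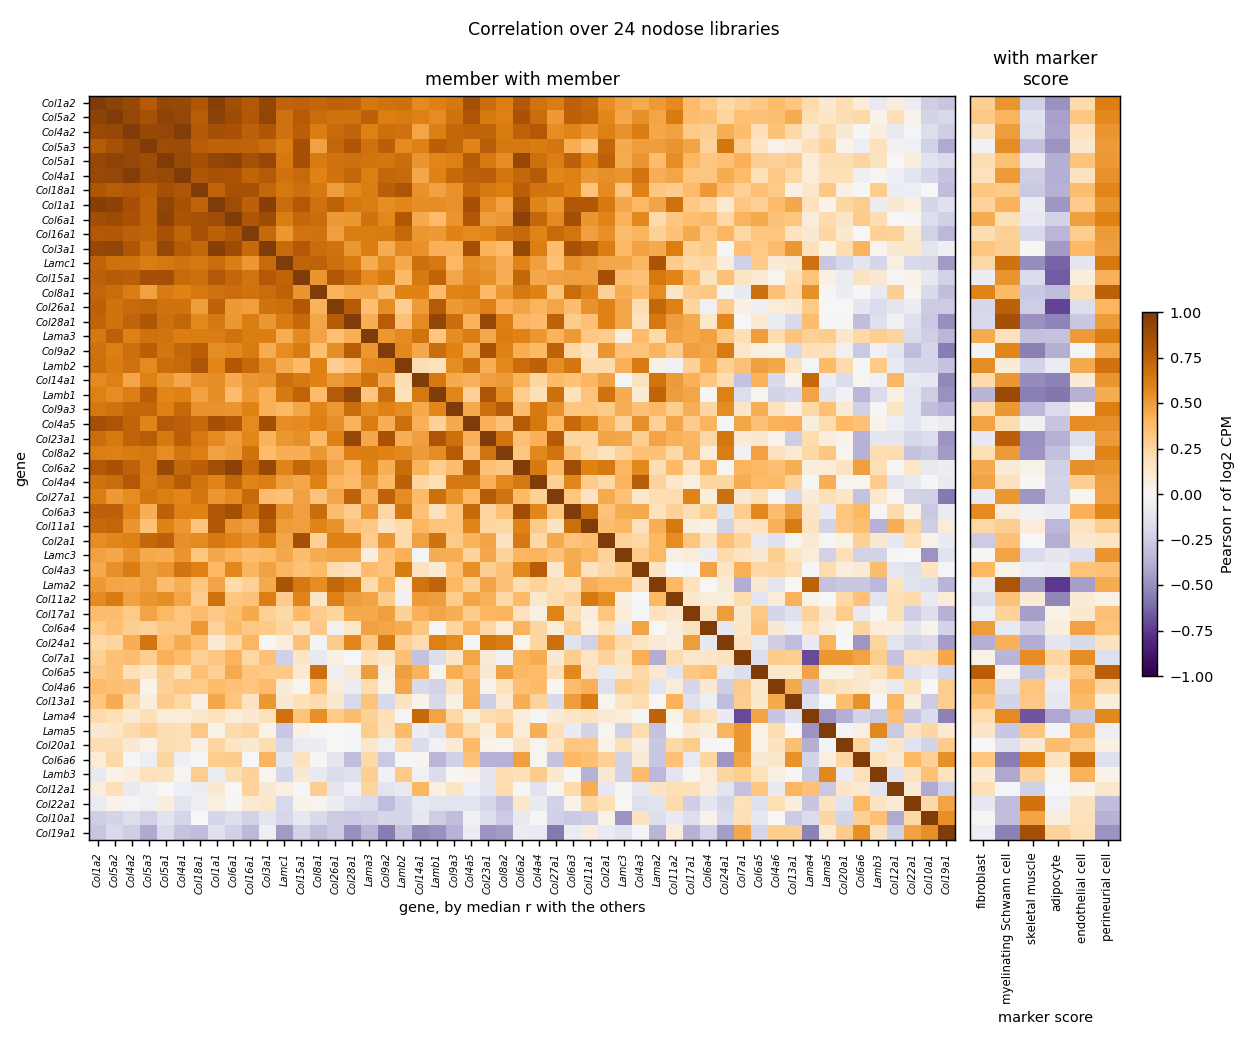
Pearson r of log2 CPM over 24 nodose libraries between members (left, ordered by median r with the others) and between members and marker scores (right). The block of fibrillar, collagen IV and collagen VI genes at the upper left holds r up to 0.98, and Col19a1, at the bottom, is negative with most members and has 0.86 with the skeletal muscle score.

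Genes that make, bind or cut these proteins were read from lists. Among 18 tested collagen-modifying enzymes and chaperones, 13 procollagen processing and crosslinking genes and 8 genes of TGF-beta, 0 passed the 24-h test in nodose libraries (edgeR; 1.33% of all genes did), with 3, 5 and 0 at an unadjusted p under 0.05 (12.8% of all genes). The lowest p in these lists were those of P4ha2, a prolyl hydroxylase (adjusted p = 0.153, edgeR), Tll1, a procollagen protease (0.177), and Tgfbr2, a TGF-beta receptor (0.427). Of 11 matrix proteases and inhibitors 1 passed, Mmp14, a membrane protease that cleaves fibrillar collagen, with an amplitude of 0.52 and a peak at ZT0.659 (adjusted p = 0.000222, edgeR). Of 15 other matrix proteins 1 passed, Fbn1 (fibrillin 1 of microfibrils), with 0.51 and ZT1.28 (adjusted p = 9.57e-05, edgeR). Of 14 receptors 1 passed, Mcam, a laminin receptor of vessels (0.22, ZT0.209, adjusted p = 0.0282, edgeR), and of 8 basement membrane partners Fras1 (0.34, ZT19.3, adjusted p = 0.0320, edgeR). Mmp14 ran from 43.8 to 144 CPM and Fbn1 from 385 to 984 CPM. Unlike those of the members, the calls of these list genes were not refitted without single libraries or with marker scores. In the genotype tests 0 genes of these 7 lists passed, by edgeR, for the mean over ZT and at each ZT, where 0% of all genes did.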

How the data were processed

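RNA was sequenced from 24 nodose and 24 arcuate pools. The authors deposited raw counts per gene symbol (whole numbers in every cell). Per the submitters' processing notes FastQC 0.11.7, Trim Galore 0.6.10, STAR 2.7.10b and mm10 were used. The counting tool, annotation and strand setting are not given in the sources used here, so reads of overlapping or antisense genes could not be separated. From the counts, CPM were scaled by TMM, and edgeR 4.0.16 (R 4.3.3) fitted a robust quasi-likelihood model per tissue after its filter on low counts, with 1 mean per genotype and ZT. There were 10 tests per tissue, each with Benjamini-Hochberg adjustment over all genes tested and a threshold of 0.05. DESeq2 1.42.0 was an alternative. Correlations used log2 CPM with a prior count of 2. Intervals of shares are exact Clopper-Pearson (95%). Lengths and positions came from GENCODE vM21.

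Named genes were the 3 highest per role, those called (or with the 2 lowest p) in each test, threshold neighbours and genomic neighbours. Members and lists were chosen with earlier results of these data known. No 2 replicates were alike within sampling noise (chi-square per degree of freedom at least 8.12 in nodose, 2.89 in arcuate), and the p-values measure the spread between pools. The script was tested on simulated data. Some items, among them 1 member, are not reported here by name.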

Additional observations from a re-analysis of the deposited data

Results flagged for a closer look

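For 1 member the HepDKO and Control libraries at ZT16 lay apart in opposite directions in the 2 tissues, among 36 named members and 144 combinations of member and ZT examined. Over all genes tested in both tissues 0.536% of such combinations did so, so 1 of 144 is near that share. Col16a1, a FACIT, had a log2 HepDKO over Control of -0.20 in nodose and 0.15 in arcuate libraries. All 3 HepDKO libraries were below all 3 Control libraries in nodose and above them in arcuate. The difference between the tissues was not tested.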

How the results depend on the processing

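Nodose calls of members (24-h component 4, any difference among times 3) went to 0 and 0 with muscle and adipocyte scores as covariates, with amplitudes of 0.60 (Col2a1), 0.39 (Lama3), 0.43 (Col5a3) and 0.27 (Col15a1) against 0.63, 0.40, 0.47 and 0.38; over all genes the calls were 186 and 139 (198 and 165 without them). With Schwann cell scores added (chosen after seeing the data) they were 2 and 0 (all genes 217 and 131). With Schwann cell and fibroblast scores (also chosen afterwards) the 24-h count was 2 (all genes 154). DESeq2 gave 5 among times, 1 in Control and 1 in HepDKO, and for arcuate 3 among times, 3 for the 24-h component (edgeR 1 each) and 2 in HepDKO (edgeR 0). Over all genes DESeq2 called 421 and 383 in nodose (edgeR 165 and 198) and 944 and 1075 in arcuate (450 and 622), with 135 in nodose Control (36), 70 in nodose HepDKO (18) and 385 in arcuate HepDKO (61). Leaving out 1 library gave 0 to 4 members in both nodose tests (all genes 96 to 284 among times and 129 to 276 for the 24-h component), 0 to 2 among times (215 to 993) and 1 to 3 for the 24-h component (287 to 1031) in arcuate, and 0 to 1 in arcuate HepDKO (31 to 312). The ZT of the largest genotype difference changed for Col19a1 in nodose (interaction range 1.90 without Control ZT4 replicate 2; all fits 1.57 to 2.64) and Col4a2 in arcuate (0.27 without HepDKO ZT4 replicate 3; up to 0.79). The median over members moved to 0.05 at ZT16 with Schwann cell and fibroblast scores, and to -0.0060 at ZT22 without the 4 libraries that stood apart. Unless given, the cause was not tested.

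The labels tie no number to shared animals or days, and same-numbered deviations had r from -0.43 (median 0.0028) in nodose and from -0.13 (median 0.025) in arcuate, so the samples were not treated as paired. In nodose 11 and in arcuate 16 of 24 libraries correlated best with their own number, where arbitrary numbers would give about 8. With a replicate block nodose held 2 members among times (Lama3 lost, adjusted p = 0.0643, edgeR; all genes 152) and 4 for the 24-h component (190), and arcuate 1 and 1 (507 and 677). Depth limits the scarce members: Col22a1 had 0 counts in its lowest nodose library.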
